A study of Mus musculus with 11 samples.

Results

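RNA polymerase III is the nuclear enzyme that makes transfer RNAs and other short non-coding RNAs. The genes described here are 9 of its subunits, taken by symbol: the Pol III-only subunits Polr3a, Polr3b, Polr3d, Polr3e, Polr3f, Polr3g and Polr3k, and Polr1c and Polr1d, which Pol III shares with RNA polymerase I. All 9 were among the 13121 genes measured in soleus and the 12366 measured in quadriceps, and all 9 passed the filter on low values in both muscles. The values are transcript levels of the subunits. Enzyme assembly and activity were not measured.

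The study sequenced RNA from 2 mouse hindlimb muscles, the postural soleus and the mostly fast quadriceps. The libraries labelled Myc came from mice 2.5 months old that carried a doxycycline-inducible Myc system, were given doxycycline overnight and were sampled 12 hours after the drug was taken away; there were 4 such soleus libraries and 2 such quadriceps libraries. The libraries labelled control came from age-matched mice, with 3 soleus and 2 quadriceps libraries. The labels used here give neither the genotype of the controls, nor whether they received doxycycline, nor the promoter that drives the transgene, nor whether a soleus and a quadriceps library with the same number came from 1 animal. All libraries were treated as independent, and the p-values measure only the spread between these libraries.

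Pol III is a large complex with several functional modules. Polr3a and Polr3b form its catalytic centre, Polr1c and Polr1d form the assembly platform, Polr3d and Polr3e form an initiation and termination module, Polr3f works with Polr3c and with either Polr3g or its paralog Polr3gl in a module that contacts the initiation factor TFIIIB and helps to open the promoter, and Polr3k cleaves the nascent RNA and acts in termination. MYC is known from mammalian cells to bind TFIIIB and to raise Pol III transcription, and it also binds the E-box CACGTG near many genes of ribosome production.

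Promoter sequences are shown because MYC binds DNA by sequence and because 1 of them holds part of another Pol III gene. They are RefSeq sequences of build GRCm38.p6, matched for 7 of the 9 subunits and not for Polr3a and Polr3d. The window ran from 250 bases before to 50 bases after each start, and the 250 upstream bases are printed 5′ to 3′ on the strand of the gene. Capitals mark matches, on either strand, to the E-box CACGTG, to its variant CACGCG, and to the core of the internal B box of transfer RNA genes, GGTTCGA. The subunits shown are the 3 members whose upstream sequence holds such a match, the most changed member, Polr3g, and its paralog Polr3gl. The printed stretches are chr7:120917528-120917777 on the plus strand for Polr3e, chr17:46248046-46248295 on the minus strand for Polr1c, chr2:181864110-181864359 on the plus strand for Polr3k, chr13:81711014-81711263 on the minus strand for Polr3g and chr3:96594182-96594431 on the minus strand for Polr3gl.
Polr3e: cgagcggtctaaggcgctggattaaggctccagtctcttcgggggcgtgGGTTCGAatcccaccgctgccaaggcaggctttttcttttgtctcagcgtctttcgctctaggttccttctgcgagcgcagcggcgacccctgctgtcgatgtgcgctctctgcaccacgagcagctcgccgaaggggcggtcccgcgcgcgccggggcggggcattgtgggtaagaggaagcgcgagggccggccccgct
Polr1c: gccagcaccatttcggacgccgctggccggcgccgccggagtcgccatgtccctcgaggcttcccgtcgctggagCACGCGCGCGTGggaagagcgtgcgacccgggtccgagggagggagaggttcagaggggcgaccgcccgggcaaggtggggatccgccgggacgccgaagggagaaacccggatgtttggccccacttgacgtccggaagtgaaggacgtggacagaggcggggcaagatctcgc
Polr3k: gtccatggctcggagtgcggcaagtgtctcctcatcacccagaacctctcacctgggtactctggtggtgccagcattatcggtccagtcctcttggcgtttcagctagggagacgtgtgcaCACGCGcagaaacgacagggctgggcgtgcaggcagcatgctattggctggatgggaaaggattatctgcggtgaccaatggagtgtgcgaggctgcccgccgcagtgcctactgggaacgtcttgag
Polr3g: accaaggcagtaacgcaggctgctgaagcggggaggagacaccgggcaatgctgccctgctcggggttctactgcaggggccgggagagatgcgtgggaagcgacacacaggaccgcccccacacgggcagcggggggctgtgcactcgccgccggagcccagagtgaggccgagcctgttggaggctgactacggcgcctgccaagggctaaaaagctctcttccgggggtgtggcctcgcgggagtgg
Polr3gl: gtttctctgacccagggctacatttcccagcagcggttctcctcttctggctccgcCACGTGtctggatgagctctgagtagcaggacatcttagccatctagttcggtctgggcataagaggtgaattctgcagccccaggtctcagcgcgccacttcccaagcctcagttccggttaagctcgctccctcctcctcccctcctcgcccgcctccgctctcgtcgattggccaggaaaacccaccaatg

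The palindrome CACGTG was found in 1 of the 7 member windows (14.3%), that of Polr3e, with its first base at position 6 counted from the start, downstream of the printed stretch. The same motif was present in 7.24% of 27025 promoters of this length and in 10.4% of the 10412 promoters of genes measured in soleus. CACGCG, searched on both strands, was found in 3 of the 7 (42.9%), against 9.36% of all promoters and 17.5% of those of genes measured in soleus. In Polr1c the 2 strands' matches lie side by side, at positions -175 and -169, in Polr3k the match begins at -128, and in Polr3g it lies at position 35, downstream of the printed stretch; none overlaps a CACGTG. The B-box core GGTTCGA was chosen after the Polr3e sequence had been seen. It begins at position -201 of Polr3e, the 1 member of 7 that holds it, and 0.899% of all promoters and 1.19% of those of genes measured in soleus hold it on either strand. RefSeq places a transfer RNA gene, n-TLaag4, across the beginning of the Polr3e window, with 71 of its 82 bases inside. Of 17492 promoters of protein-coding genes, 5 (0.0286%) overlap an annotated transfer RNA gene. The stretch of n-TLaag4 in the Polr3e window holds the B-box core chosen after that sequence was seen, so this share is a description and not a test. These matches describe the letters in the window and show no binding.

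Libraries held 11.09 to 14.85 M estimated reads in soleus and 14.21 to 18.38 M in quadriceps. The row for Myc itself did not separate the labels. It had values of 26.3, 31.0, 28.8 and 27.7 in the soleus libraries labelled Myc, against 30.0, 54.3 and 28.2 in those labelled control, and values of 86.4 and 33.6 in the quadriceps libraries labelled Myc, against 114 and 55.7 in those labelled control. Neither difference passed the test, and every direction given here rests on the labels. Soleus carried high summed slow fibre markers (503287 to 642765 in Myc libraries, 533406 to 620155 in controls) and quadriceps high summed fast fibre markers (2023940 to 2747370 in Myc libraries, 1865140 to 2604200 in controls), as their labels say. The summed slow fibre markers ran from 1985 to 3473 in quadriceps Myc libraries and from 26292 to 190660 in quadriceps control libraries, with all 9 listed genes measured. Satellite cell markers in soleus, 2 of 3 listed genes, summed to 74.2 to 101 in Myc libraries and 70.4 to 152 in controls. Limma called 0 of the 2, and 1 had an unadjusted p under 0.05. Mki67, a cell division marker too low to be tested in soleus, ran from 0 to 24.3 in Myc libraries and from 4.42 to 9.39 in controls. In soleus the summed tendon markers ran from 2006 to 6799 in Myc libraries, with Myc replicates 3 and 4 lowest, and from 6711 to 8277 in controls; the general muscle fibre markers ran from 802916 to 873319 in Myc libraries and from 922153 to 998504 in controls, and the endothelial markers from 4713 to 5661 in Myc libraries and from 5674 to 6455 in controls. The summed fast fibre markers were 283907, 386789, 500937 and 320204 in the soleus Myc libraries, against 459049, 487024 and 482293 in the controls, so that 3 of the 4 Myc libraries were below every control. Of the 10 fast fibre genes, 1 was called lower in soleus, Mylpf (log2 -0.47; limma adjusted p = 0.0100). Summed fibroblast markers were 5680 and 8409 in Myc replicates 3 and 4 and 17131 and 17551 in Myc replicates 1 and 2, against 13806 to 20574 in controls, and summed erythroid markers were 4305 and 3277 in Myc replicates 3 and 4 and 6002 and 7523 in Myc replicates 1 and 2, against 7444 to 7704 in controls. Limma called 0 of the 7 fibroblast and 0 of the 5 measured erythroid genes in soleus, and 0 of each had an unadjusted p under 0.05. Limma also called 0 tendon, 0 general muscle fibre and 0 endothelial genes. Their unadjusted p was under 0.05 for 3 of 7, 2 of 4 and 1 of 5 genes in that order. It was under 0.05 for 4 of the 10 fast fibre genes, whose fitted soleus changes ran from -2.59 to -0.15 (log2). The part of these shifts in the results was not tested. In whole muscle, fewer cells of a type and less RNA per cell cannot be told apart.

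In soleus, 6 of the 9 subunits rose in the Myc libraries, both Pol I/III subunits and 4 Pol III-only subunits, and none fell. By the same test, limma on log2(value + 1) with a Benjamini-Hochberg adjusted p under 0.05, 7.06% of the 12745 genes tested were higher and 2.23% were lower. In simulated data the fits made more false calls than the threshold aims at, in both muscles and for the difference between muscles. They missed most of the smallest changes simulated, which were about as large as the smaller called changes of the subunits. In the same 6 subunits every Myc library lay above every control library, as was so for 12.7% of all genes. The fitted change was positive for 8 of the 9 subunits and for 45.6% of all genes, and its median was 0.60 (log2) over the 9 subunits and -0.03 over all genes. The largest change was that of Polr3g, 3.86-fold, and the called changes of the other 5 subunits were between 1.46-fold and 1.74-fold.

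**Figure D1:**
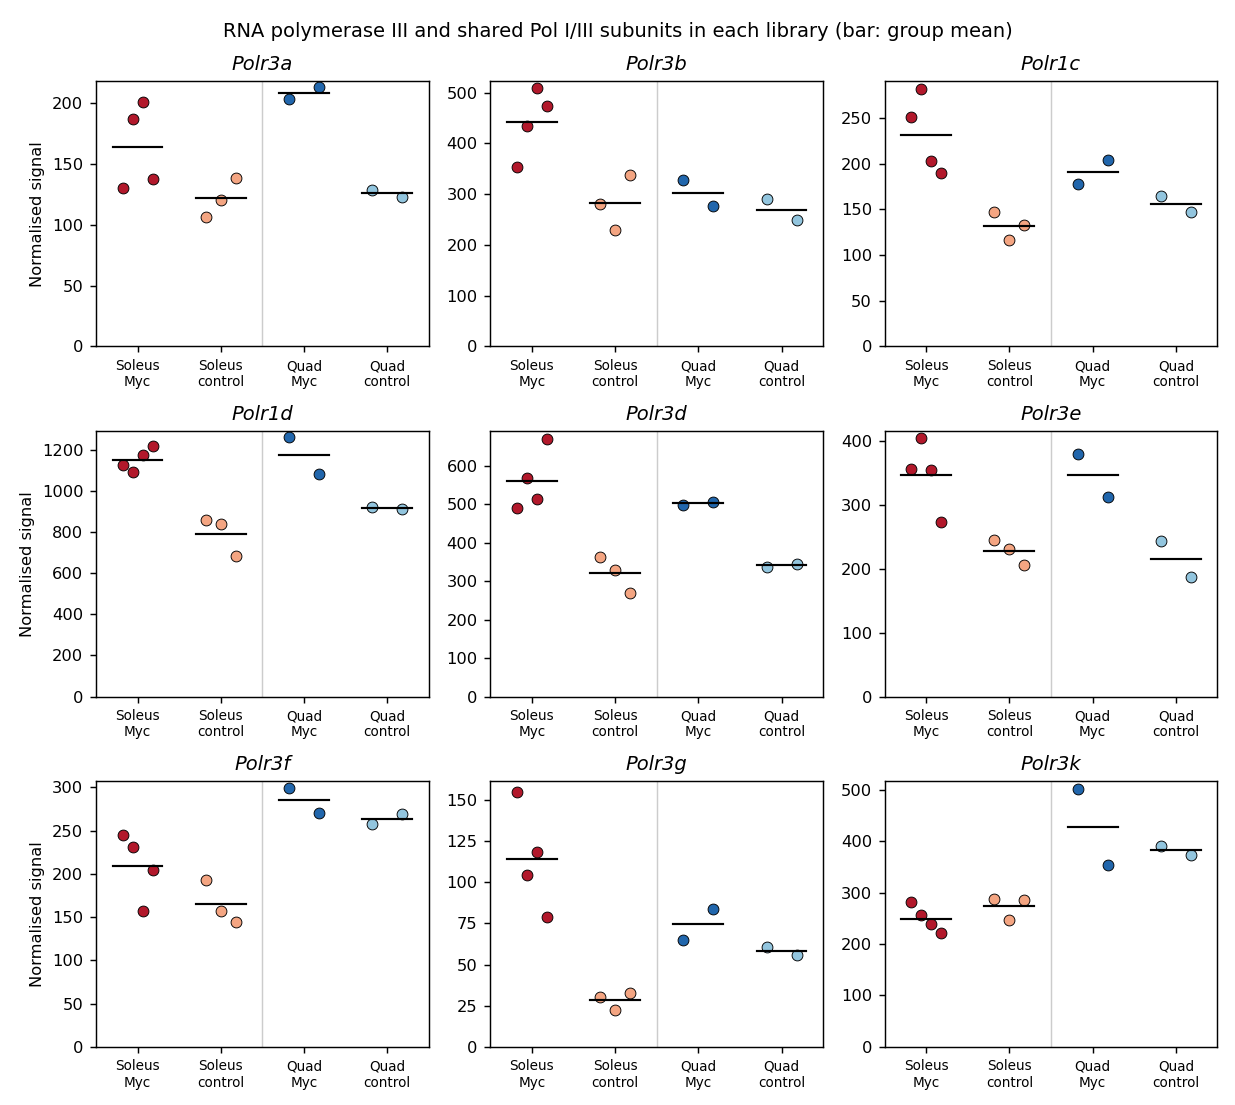
Normalised signal (y axis, linear, from 0, scaled separately for each gene) of each of the 9 subunits in each library, with soleus Myc (4 libraries), soleus control (3), quadriceps Myc (2) and quadriceps control (2) from left to right; points are libraries and bars are group means. Polr3g stands out, with soleus Myc libraries between 79.2 and 155 and soleus control libraries between 22.3 and 32.9, while Polr3k overlaps between the groups in both muscles.

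Of the catalytic pair, Polr3b rose in soleus. Polr3b, the second-largest subunit, had normalised signals of 354, 434, 509 and 474 in the Myc libraries, against 280.1, 229 and 337 in the control libraries. All 4 Myc libraries were above the 3 controls, although the lowest Myc library and the highest control were close. The change was 1.57-fold (log2 0.65, SE 0.16), with a limma adjusted p of 0.0179. Leaving out 1 library ended the call for Polr3b in 4 cases: adjusted p was 0.0589 without Myc replicate 3, 0.0619 without Myc replicate 4, 0.0501 without control replicate 1 and 0.113 without control replicate 2, by limma. Without both Myc replicates 3 and 4, the libraries with the lowest tendon markers, it was 0.198 by limma. Polr3a, the largest subunit, had signals of 130.4, 188, 201 and 138 in the Myc libraries, against 107, 120.3 and 139 in the controls. Myc replicates 1 and 4 lay within the control range, so the groups overlapped. Its log2 difference was 0.41 (95% interval -0.06 to 0.88), with a limma adjusted p of 0.303.

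Both members of the Pol I/III assembly platform rose in soleus. Polr1c had signals of 251, 282, 203 and 190.0 in the Myc libraries, against 147, 116 and 133 in the controls. The groups did not overlap, and the change was 1.73-fold (log2 0.79, SE 0.20) with a limma adjusted p of 0.0157. That call was lost without Myc replicate 2 (adjusted p = 0.0576, limma) and without control replicate 2 (adjusted p = 0.0793, limma). Polr1d, its partner and the most abundant of the 9 transcripts per length, had signals of 1123, 1091, 1173 and 1219 in the Myc libraries, against 856, 837 and 682 in the controls. The 4 Myc values lay close together and well above all 3 controls. The change was 1.46-fold (log2 0.55, SE 0.11) with a limma adjusted p of 0.00347; it kept its call without any 1 library and lost it without both Myc replicates 3 and 4 (adjusted p = 0.0540, limma).

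Both subunits of the initiation and termination module also rose in soleus. Polr3d had signals of 489.6, 568, 512 and 670.0 in the Myc libraries, against 364, 329.8 and 270.0 in the controls. The lowest Myc library was above the highest control. The change was 1.74-fold (log2 0.80, SE 0.15; 95% interval 0.49 to 1.11) with a limma adjusted p of 0.00184. Polr3e, whose promoter window is shown above with the transfer RNA gene, had signals of 356, 404, 355 and 273 in the Myc libraries, against 245, 231 and 207 in the controls. Myc replicate 4 was the low one of its group but still above the controls. The change was 1.51-fold (log2 0.60, SE 0.16; 95% interval 0.25 to 0.94) with a limma adjusted p of 0.0282. Its call was lost when any 1 of 5 libraries was left out: without Myc replicate 1, 2 or 3, or control replicate 2 or 3, the fit gave limma adjusted p-values of 0.0653, 0.0865, 0.0641, 0.0776 and 0.0899 in that order.

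In the promoter-contacting module, Polr3g rose and Polr3f did not pass the test. Polr3g, a subunit known from human and mouse cells to be abundant in stem and proliferating cells, had signals of 155, 105, 119 and 79.2 in the soleus Myc libraries, against 30.0, 22.3 and 32.9 in the soleus controls. Even the lowest Myc library was clearly above the highest control. The change was 3.86-fold (log2 1.95, SE 0.31; 95% interval 1.28 to 2.61) with a limma adjusted p of 0.000586. It ranked 259 by p among the 12745 genes tested. Polr3g was the least deeply read of the 9, with 80 to 159 estimated reads in soleus Myc libraries and 23 to 34 in soleus controls, so its values carry the largest counting error. Polr3f had signals of 244, 231, 157 and 204 in the Myc libraries, against 193, 157 and 144 in the controls. The groups overlapped through Myc replicate 3, and the log2 difference was 0.33 (95% interval -0.09 to 0.75; limma adjusted p = 0.362).

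Polr3k, the RNA cleavage subunit, was the 1 member with a negative estimate in soleus. Its signals were 282, 256, 238 and 222 in the Myc libraries, against 287, 247 and 286 in the controls. The ranges overlapped, and the log2 difference was -0.13 (95% interval -0.46 to 0.20; limma adjusted p = 0.669). The estimate for Polr3k was negative under all 17 alternatives tried in soleus.

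**Figure D2:**
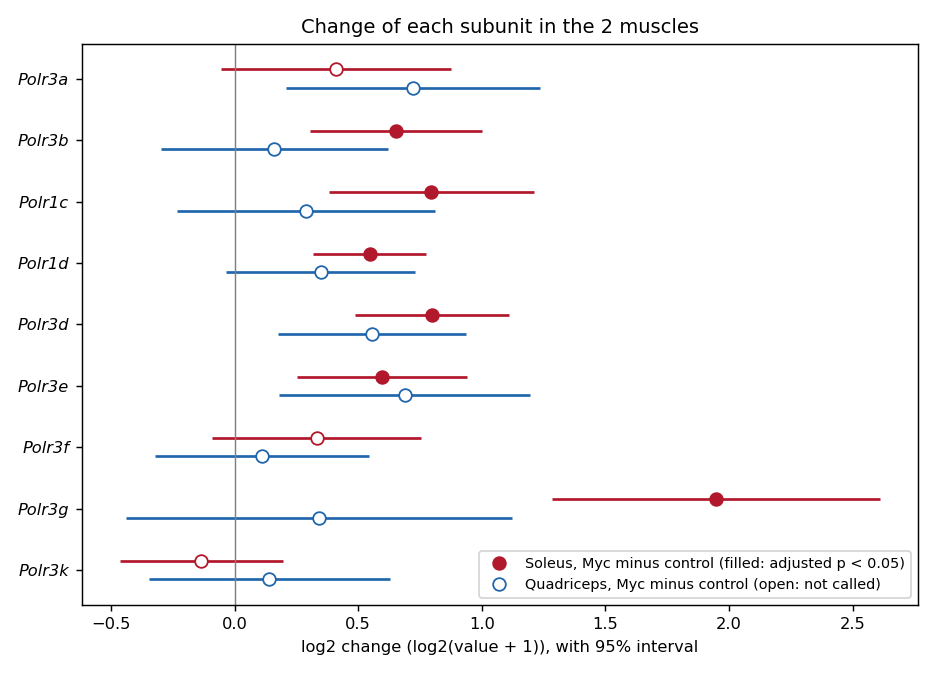
Fitted log2 change, Myc minus control on the log2(value + 1) scale (x axis), of each subunit (y axis) in soleus (red, above) and quadriceps (blue, below), with 95% intervals; filled points passed an adjusted p under 0.05. In soleus 6 subunits passed, with Polr3g far to the right at 1.95, and in quadriceps none passed although all 9 points lie above 0.

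Polr3d and Polr3g kept their soleus call under all 17 alternatives tried, which include leaving out each library in turn. Across them the log2 change of Polr3g lay between 1.72 and 2.14, with limma adjusted p-values between 0.000444 and 0.00669, and that of Polr3d lay between 0.68 and 0.89, with limma adjusted p-values between 0.00128 and 0.0323. The number of subunits called fell to 3 without control replicate 2, when Polr1d, Polr3d and Polr3g were left, and to 4 without Myc replicate 2, without Myc replicate 3, and without Myc replicates 3 and 4 together. Control replicate 2 had the lowest values of Polr3b, Polr1c and Polr3g among the soleus controls.

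**Figure D3:**
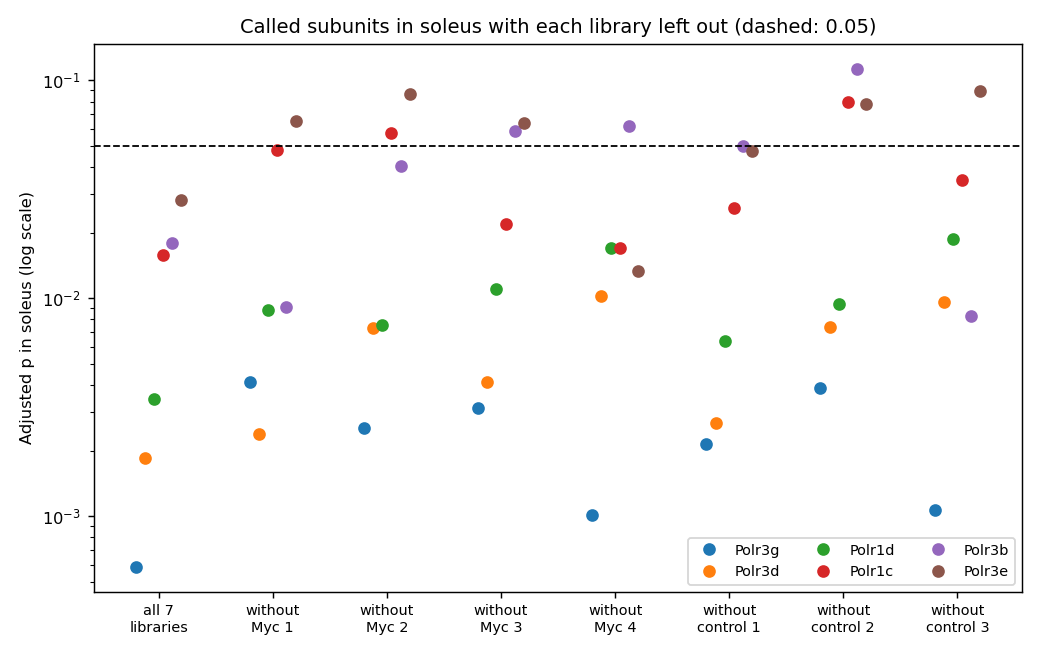
Limma adjusted p in soleus (y axis, log scale; dashed line at 0.05) of the 6 called subunits with all 7 libraries and with each library left out in turn (x axis). Polr3g, Polr3d and Polr1d stay below the line throughout, while Polr1c, Polr3b and Polr3e cross it, all 3 of them without control replicate 2.

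In quadriceps none of the 9 subunits passed the test, where 0.00815% of the 12270 genes tested were called higher and 0% lower. All 9 fitted changes were positive, as for 45.8% of all genes, with a median of 0.34 (log2) over the subunits and -0.03 over all genes; that of Polr3k was negative without Myc replicate 1 (log2 -0.11). In lists described below, the quadriceps change was positive for 6 of 6 Pol I-only and 7 of 8 Pol II-only subunits. It was positive for 1 of 3 other Pol III-only subunits. Both Myc libraries lay above both controls for 7 of the 9 subunits, a pattern found in 18.3% of all genes. That pattern held for 5 of 6 Pol I-only, 4 of 8 Pol II-only and 0 of 3 other Pol III-only subunits. Of the 9 subunits, 3 had an unadjusted p under 0.05 by limma, against 6.21% of all genes. Limma-voom on estimated reads also called 0 of the 9. With 2 libraries a group, the 95% intervals were wide, and the missing calls do not show that the subunits were unchanged. The slow fibre marker sums given above differed between the quadriceps groups beside these values, and their part in them was not tested.

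Polr3a had the largest quadriceps difference of the 9, with signals of 204 and 213 in the Myc libraries, against 129 and 123 in the controls. Both Myc libraries were far above both controls, the log2 difference was 0.72 (95% interval 0.21 to 1.24), and the limma p was 0.0122 before and 0.589 after adjustment. Polr3e had 379 and 313 in the Myc libraries, against 244 and 187 in the controls. Its groups did not overlap either, with a log2 difference of 0.69 (95% interval 0.18 to 1.19; limma adjusted p = 0.598). Polr3d had 499 and 505 in the Myc libraries, against 337 and 346 in the controls. The replicates of each group nearly coincided, and the log2 difference was 0.56 (95% interval 0.18 to 0.94; limma adjusted p = 0.556).

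Polr1d had quadriceps signals of 1261 and 1083 in the Myc libraries, against 923 and 913 in the controls, and Polr1c had 178 and 204 in the Myc libraries, against 165 and 147 in the controls. Neither overlapped between the groups, and the log2 differences were 0.35 for Polr1d and 0.29 for Polr1c. Polr3b had 327 and 276 in the Myc libraries, against 290.1 and 249 in the controls, so its groups overlapped (log2 difference 0.16). Polr3f had 299 and 270.4 in the Myc libraries, against 258 and 269 in the controls, which are just apart (log2 difference 0.11). Polr3k had 503 and 353 in the Myc libraries, against 391 and 374 in the controls. Its Myc replicates lay on either side of the controls (log2 difference 0.14).

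Polr3g, the subunit with the largest soleus change, had quadriceps signals of 64.8 and 83.9 in the Myc libraries, against 60.3 and 55.7 in the controls. The Myc libraries were above the controls by little, with a log2 difference of 0.34 (95% interval -0.44 to 1.12; limma adjusted p = 0.930). The soleus change of Polr3g exceeded its quadriceps change by 1.61 on the log2 scale (SE 0.48; 95% interval 0.59 to 2.62), with a limma interaction p of 0.00424 before adjustment and 0.999 after it. None of the 9 subunits passed the adjusted test of the difference between muscles, and 0% of the 11971 genes tested did. Polr3g was the 1 subunit with an unadjusted p under 0.05 there, against 3.18% of all genes, and limma-voom called 0 subunits as well. The soleus change was above the quadriceps change for 6 of the 9 subunits and for 54.2% of all genes. The other 8 differences between muscles ran from -0.31 for Polr3a to 0.50 for Polr1c.

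Polr3g and its paralog Polr3gl are alternative subunits of the same position, and Polr3gl is known to be the form of differentiated tissues. Polr3gl had soleus signals of 625, 511, 759 and 652 in the Myc libraries, against 658, 645 and 423 in the controls. The groups overlapped, and the log2 difference was 0.16 (95% interval -0.20 to 0.52; limma adjusted p = 0.632). Per kilobase of exon, Polr3g made up 9.13%, 7.68%, 5.96% and 4.69% of the summed Polr3g and Polr3gl signal in the soleus Myc libraries, against 1.82%, 1.38% and 3.06% in the soleus controls. All 4 Myc shares were above all 3 control shares, and the means were 6.87% ± 1.94 in Myc libraries (SD, n = 4) and 2.09% ± 0.870 in controls (SD, n = 3). The ratio of the 2 paralogs was 3.54-fold higher in Myc libraries, with a two-sided exact permutation p of 0.0571, which is the smallest that 4 libraries against 3 allow. In quadriceps the share was 3.22% and 4.60% in Myc libraries, against 3.02% and 2.96% in controls, with an exact permutation p of 0.333, the smallest possible there. Polr3gl was the more abundant of the pair in every library.

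**Figure D4:**
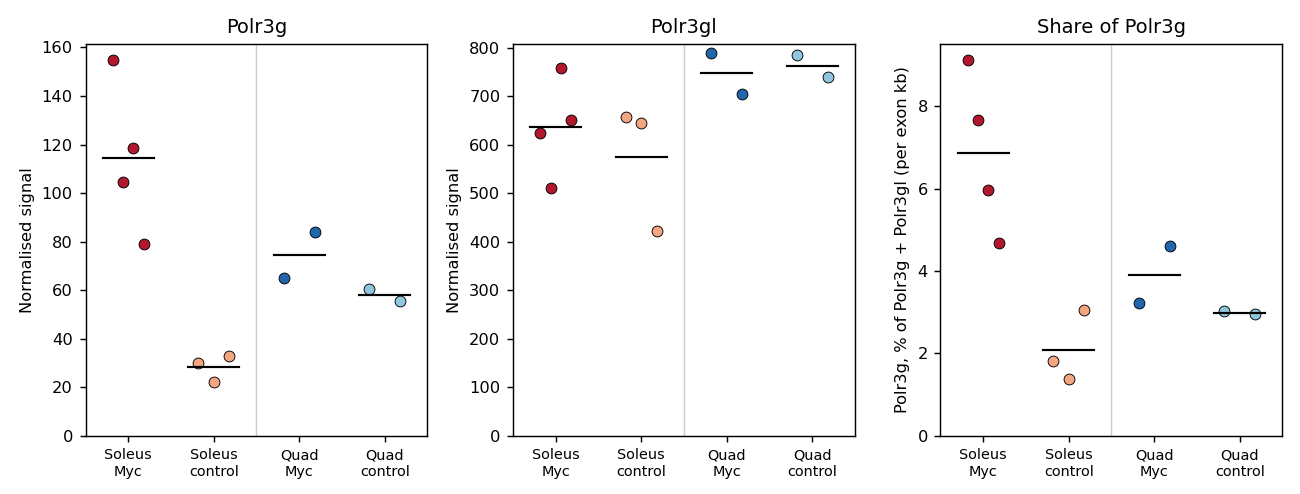
Normalised signal of Polr3g (left) and Polr3gl (middle), and the share of Polr3g in the sum of both per exon kilobase in percent (right), in each library, with each muscle's Myc libraries left of its controls; bars are group means. In soleus the share of Polr3g lies between 4.69% and 9.13% in Myc libraries and between 1.38% and 3.06% in controls, while the Polr3gl values overlap.

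The levels of the 9 transcripts can be ranked per kilobase of exon, with exon lengths from GENCODE vM21, since the annotation used for counting is not given in the sources used here. In soleus Myc libraries Polr1d was highest at 379 ± 18.5 per kilobase (SD, n = 4), followed by Polr3d at 196 ± 28.2, Polr1c at 102 ± 18.8, Polr3b at 84.1 ± 12.6, Polr3k at 79.9 ± 8.30, Polr3e at 69.1 ± 10.8, Polr3g at 29.0 ± 8.01, Polr3a at 28.2 ± 6.09 and Polr3f at 27.1 ± 5.03. The ranges of neighbours overlapped from Polr1c to Polr3e and again from Polr3g to Polr3f. In soleus controls Polr1d was again highest at 260.2 ± 31.4 per kilobase (SD, n = 3) and Polr3g was lowest at 7.22 ± 1.39, below Polr3a at 20.9 ± 2.72 with no overlap. Between them came Polr3d at 113 ± 16.7, Polr3k at 87.6 ± 7.29, Polr1c at 57.9 ± 6.65, Polr3b at 53.6 ± 10.3, Polr3e at 45.3 ± 3.84 and Polr3f at 21.4 ± 3.24, where the ranges of Polr1c and Polr3b, of Polr3b and Polr3e, and of Polr3f and Polr3a overlapped, and those of Polr3e and Polr3f did not. Polr3g was set apart at the bottom of the order in soleus controls, while in soleus Myc libraries its range overlapped those of Polr3a and Polr3f. In quadriceps Polr1d was also highest and Polr3g lowest in both groups, with Polr3g at 18.9 ± 3.43 per kilobase in Myc libraries and 14.7 ± 0.837 in controls (SD, n = 2 each). The quadriceps order was Polr1d, Polr3d, Polr3k, Polr1c, Polr3e, Polr3b, Polr3f, Polr3a and Polr3g in Myc libraries, with overlap only between Polr3f and Polr3a, and in controls Polr3k and Polr3d, and Polr3b and Polr3e, changed places and overlapped. Polr3gl stood at 399 ± 63.8 per kilobase in soleus Myc libraries and at 360.3 ± 82.9 in soleus controls.

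The other Pol III subunits and the related polymerases give the setting for these changes, and the lists were chosen with earlier results of these data known. Of 3 other Pol III-only subunits, Polr3c, Polr3gl and Crcp, limma called 0 in soleus and 0 had an unadjusted p under 0.05. Their median log2 change in soleus was 0.13. The smallest p-values there belonged to Polr3gl, given above, and to Polr3c, a partner of Polr3f, with 301 ± 26.8 in Myc libraries (SD, n = 4) and 273 ± 17.7 in controls (SD, n = 3), a log2 difference of 0.13 (95% interval -0.18 to 0.44; limma adjusted p = 0.646). Counting these 3 with the 7 described above, 4 of 10 Pol III-only subunits rose in soleus, with a median log2 change of 0.37, and in quadriceps limma called 0 of 10. Of the 5 subunits common to Pol I, II and III, only Polr2e rose in soleus, with 1129.8 ± 107 in Myc libraries (SD, n = 4) and 751 ± 125 in controls (SD, n = 3), a 1.51-fold change (limma adjusted p = 0.00450).

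Of the 6 Pol I-only subunits, 5 rose in soleus, with a median log2 change of 1.08. The largest was Polr1b, the second-largest subunit of Pol I, with 807 ± 110 in soleus Myc libraries (SD, n = 4) and 243 ± 38.2 in soleus controls (SD, n = 3), a 3.31-fold change (limma adjusted p = 9.01e-07). Polr1a, Polr1e, Twistnb and Cd3eap rose by 0.94, 1.29, 0.86 and 1.22 on the log2 scale, and Znrd1 had a log2 difference of -0.05 that did not pass. The call of Polr1e was lost without control replicate 1 (limma adjusted p = 0.0743). In quadriceps limma called 0 of the 6, with a median of 0.70, although 5 had an unadjusted p under 0.05. Of the 8 Pol II-only subunits limma called 0 in soleus and 0 had an unadjusted p under 0.05, with a median log2 change of 0.13. The smallest p-values in that list belonged to Polr2a, the largest Pol II subunit, with a log2 difference of -0.22 (limma adjusted p = 0.258), and to Polr2c, with 0.22 (limma adjusted p = 0.474). No test between the lists was made.

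Among the factors that place Pol III on its genes, calls were limited to Gtf3a, Gtf3c4 and Snapc4. In TFIIIB, which recruits the enzyme, limma called 0 of 4 components in soleus and 1, Brf2, had an unadjusted p under 0.05. The smallest p-values belonged to Brf2, with a log2 difference of -0.59 (95% interval -1.16 to -0.02; limma adjusted p = 0.208), and to Bdp1, with 0.10 (limma adjusted p = 0.839). Among the 7 genes of TFIIIC and TFIIIA, which bind the internal promoters, 2 rose in soleus. Gtf3a, the TFIIIA of the 5S genes, was 1.70-fold higher (limma adjusted p = 0.00158) and Gtf3c4 was 1.42-fold higher (limma adjusted p = 0.0270). The call of Gtf3c4 was lost without Myc replicate 2 (0.0675) or 4 (0.0818) and without control replicate 2 (0.0930) or 3 (0.0920), limma adjusted p-values all. In SNAPc, the complex of upstream-promoter genes, 1 of 5 rose, Snapc4 (1.62-fold; limma adjusted p = 0.0172), whose call was lost without Myc replicate 3 (0.0542), Myc replicate 4 (0.0571) or control replicate 2 (0.0755). Maf1, the repressor of Pol III, had 1099 ± 79.1 in soleus Myc libraries (SD, n = 4) and 1067 ± 86.9 in soleus controls (SD, n = 3), a log2 difference of 0.04 (95% interval -0.18 to 0.26; limma adjusted p = 0.860).

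Genes that bind or process Pol III transcripts followed. Of 3 La and 7SK binding proteins 1 rose in soleus. Ssb, the La protein that binds the ends of new Pol III transcripts, was 1.30-fold higher in soleus (limma adjusted p = 0.0294). That call was lost with every library kept in 1 fit over all 11 libraries (0.0646), and it was lost without Myc replicate 2 (0.0523), 3 (0.0609) or 4 (0.0889) and without control replicate 2 (0.140) or 3 (0.0850), limma adjusted p-values all. Of 10 measured proteins of RNase P and RNase MRP, 3 rose in soleus: Rpp38 2.53-fold, Rpp40 2.17-fold and Rpp14 1.64-fold (limma adjusted p = 0.00569, 0.00301 and 0.000173 in that order). Of 9 genes of transfer RNA end processing and splicing, 4 rose in soleus, with a list median of 0.46 (log2). Elac2, which cuts the 3′ trailer, was 2.33-fold higher, Trnt1, which adds the CCA end, was 2.00-fold higher, and Rtcb, the splicing ligase, was 1.61-fold higher (limma adjusted p = 2.11e-06, 1.37e-05 and 0.000803 in that order). Ddx1 (1.31-fold; limma adjusted p = 0.0216) also passed, and its call was lost without Myc replicate 3 (0.0559) or 4 (0.0697) and without control replicate 1 (0.0766) or 2 (0.0908), limma adjusted p-values all. In quadriceps limma called 0 genes of these 3 lists and 1 transfer RNA processing gene had an unadjusted p under 0.05. Without both Myc replicates 3 and 4, the soleus calls of Polr2e (0.0727), Polr1e (0.0852), Gtf3c4 (0.149), Snapc4 (0.176), Ssb (0.179), Rpp40 (0.0563) and Ddx1 (0.176) were lost, limma adjusted p-values all.

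**Figure D5:**
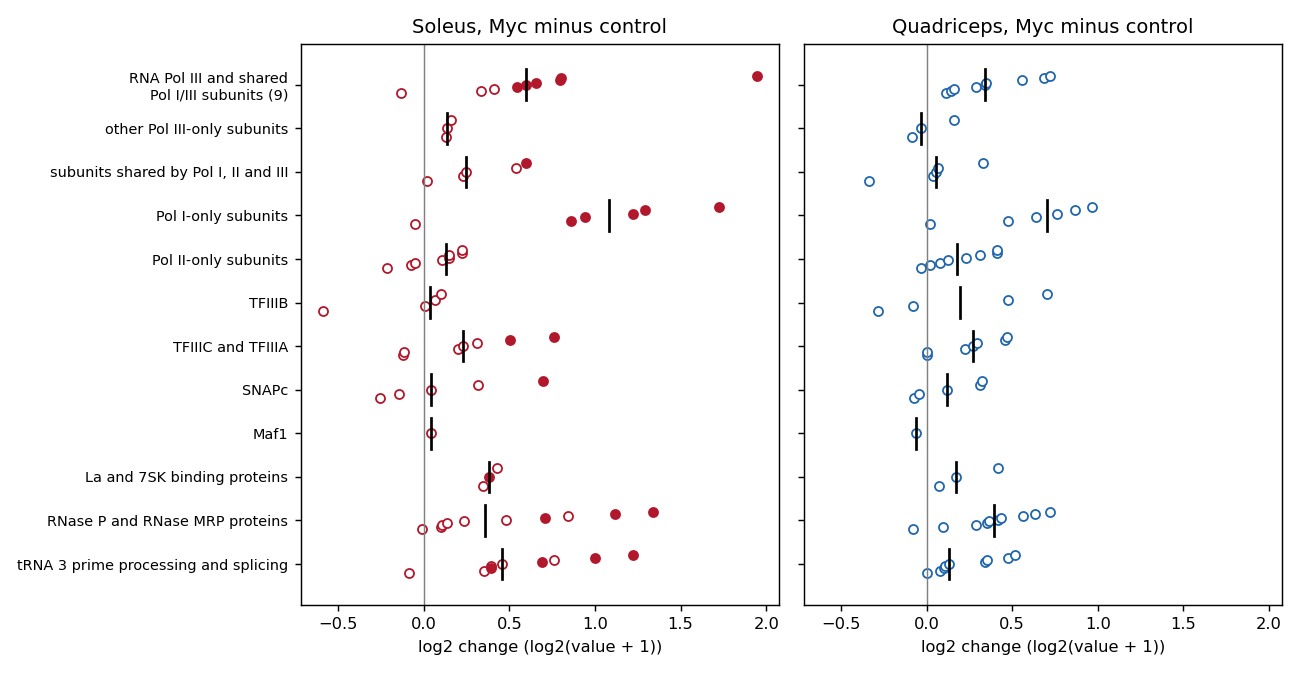
Fitted log2 change, Myc minus control (x axis), of each gene in 12 lists (y axis) in soleus (left) and quadriceps (right); filled points passed an adjusted p under 0.05 and black bars are list medians. In soleus the Pol I-only list has the highest median, 1.08, and the 9 subunits described here follow it at 0.60. The lists of other Pol III-only subunits, Pol II-only subunits, TFIIIB, SNAPc and Maf1 have medians between 0.04 and 0.13.

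Pol III transcripts themselves were poorly represented. Rn7s1 and Rn7s2, copies of the signal recognition particle RNA, had identical values in every library, so their reads cannot be told apart; their soleus level was 55.5 ± 13.3 in Myc libraries (SD, n = 4) and 39.7 ± 9.74 in controls (SD, n = 3), with overlap and a limma adjusted p of 0.452. In quadriceps Rn7s1 and Rn7s2 each had 192 and 113 in Myc libraries, against 178 and 353 in controls, so that the groups overlapped and the log2 difference, -0.76, had the opposite sign (limma adjusted p = 0.869). The soleus change of Rn7s1 exceeded its quadriceps change by 1.23 on the log2 scale, with a limma interaction p of 0.0299 before adjustment and 0.999 after it. Rn7sk was measured in quadriceps, with 39.1 and 13.8 in Myc libraries against 56.9 and 104 in controls, so that the groups did not overlap. Its log2 difference was -1.68, with a limma p of 0.0228 before and 0.670 after adjustment. The other 7 transcripts of that list are not analysed here, and no transfer RNA was.

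Across the 11 libraries, after each gene's mean within a muscle was taken off, the subunits nearest to the mean profile of the 9 were Polr1d, with a root-mean-square difference of 0.130 (log2), and Polr1c, with 0.134. The farthest were Polr3g at 0.558 and Polr3k at 0.340. The 5 genes outside the group most like that mean profile, of 9784 compared, were Bud23 (0.0587), Rsl24d1 (0.0706), Knop1 (0.0720), Gspt1 (0.0742) and Btf3l4 (0.0751), where the median gene was at 0.363. The members' mean profile is above 0 in every Myc library and below 0 in every control, so the choice of these 5 fixed their direction; as a description, their fitted soleus changes were 0.55 to 0.72 on the log2 scale.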

How the data were processed

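The deposited tables, made by the authors, hold 1 normalised signal per gene and library. From the values themselves, these are estimated reads over 1 size factor for each library, in which 1 read was worth 0.8371 to 1.174 in soleus and 0.8311 to 1.161 in quadriceps. STAR 2.7.8a, DESeq2, Partek and the builds mm10 and mm39 appear in the submitters' processing notes without role or order; the strand setting and the annotation are not given in the sources used here. The muscles were normalised in separate tables. No 2 replicates matched within sampling noise, so none was merged.

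Each muscle was fitted with limma 3.58.1 (R 4.3.3, statmod 1.5.0) on log2(value + 1), which understates changes of low genes, with a mean-variance trend, robust moderation and Benjamini-Hochberg adjustment over the genes that reached a value of 10 in 3 soleus libraries, or in 2 from quadriceps. The difference between muscles was the interaction in 1 fit of all 11 libraries. Symbols and coordinates are those of RefSeq GRCm38.p6, which may not be the build used for counting; 13114 of 13121 soleus and 12358 of 12366 quadriceps symbols matched. The paralog ratio was tested by exact permutation. The fits were tested on simulated data, with the outcome stated beside the soleus counts. Alternatives were library-size scaling, pseudocounts of 0.5 and 8, no filter or one at 50, no robust moderation, limma-voom, a replicate block, 1 fit of all libraries, each library left out, and soleus Myc replicates 3 and 4 both left out.

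The members and the gene lists were chosen with earlier results of these data known. Named are the 9 members, the called genes of each list, up to 2 with the smallest soleus p where a list had no call, the 5 genes most like the members (mean of at least 50 in each table), and Myc. Some listed genes are not reported here.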

Additional observations from a re-analysis of the deposited data

Results flagged for a closer look

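Among 72 member and pathway genes examined in the 4 soleus Myc libraries, 3 had 1 library that stood apart by the ratio of its gap to the group's range, and chance gives about 1 in 20. None was 1 of the 9 subunits. Gtf3c6, a TFIIIC subunit, had a ratio of 0.85, because Myc replicate 4 was at 526 and the other 3 between 476 and 483. Rn7s1 and Rn7s2, which have identical values, had a ratio of 0.839 each, because Myc replicate 2 was at 75.3 and the other 3 between 46.7 and 50.5.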

How the results depend on the processing

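In soleus 6 subunits were called under every other setting that kept all libraries, and 3 to 5 with 1 library left out; in quadriceps and for the difference between muscles 0 were called in every alternative. The cause of the following shifts was not tested, except that fewer libraries enter the fits that leave some out. Genes called lower in soleus were 181 with library-size scaling, 168 in 1 fit of all libraries, 117 to 244 with 1 library left out and 147 without Myc replicates 3 and 4, against 284; genes called higher were 659 to 788 with 1 library left out and 483 without both, against 900. In quadriceps, genes called higher were 0 with library-size scaling, 77 in 1 fit and 1 to 46 with 1 library left out, against 1; genes called lower were 17 in 1 fit and 2 to 91 with 1 library left out, against 0. The quadriceps median of the 9 subunits was 0.40 with library-size scaling and 0.28 to 0.39 with 1 library left out, against 0.34. For the difference between muscles, genes called higher were 4 without robust moderation and 0 to 17 with 1 library left out, genes called lower were 0 to 1, and the members' median was 0.12 to 0.34, against 0.22. The soleus median of the subunits was 0.53 to 0.65 with 1 library left out. Library-size scaling put the median of all genes at 0.01 in soleus and 0.03 in quadriceps.

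Same-numbered Myc and control libraries in soleus had correlations of their deviations of 0.00104, 0.0762 and 0.138, so the numbers were not taken to pair the samples. With the replicate block 6 subunits were still called in soleus and 0 in quadriceps, all genes lower in quadriceps came to 3 and all genes with a higher difference between muscles to 20; among listed genes Gtf3c4 (limma adjusted p = 0.0612) and Ssb (0.0572) lost their soleus call. Over all listed genes and alternatives, 40 single-gene soleus fits lost a call, 2 gained one and 1196 kept their side of the threshold, as did all 961 in quadriceps and 1457 for the difference. No called value changed sign, but the estimate took the opposite sign, uncalled both times, under some alternative for 20 of 73 genes in soleus, 27 of 74 in quadriceps and 27 of 73 for the difference. Among the 9 subunits these were Polr3k in quadriceps (1 of 13 alternatives) and the difference of Polr3e (5 of 20). Depth limits Polr3g most, with 23 to 34 estimated reads in soleus controls.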
